A study of Mus musculus with 4 samples.

Results

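The BCL2 family decides whether a cell's mitochondria stay sealed or release the proteins that start apoptosis, and 10 of its genes were followed here in a beta cell line after transfection of siRNA against NF90. The members are the pro-survival genes Bcl2, Bcl2l1 and Mcl1 and the pro-death genes Bak1, Bok, Bid, Bad, Bik, Bcl2l11 and Bbc3. Each was read from the probe set whose only gene symbol on the platform is that member, and where several qualified, from the brightest on average across the 4 arrays. This gave 10 genes of the 22180 measured. This choice of probe set did not use any difference between the groups, but the members themselves were chosen with earlier results of these data known.

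Proteins of this family bind one another on the outer mitochondrial membrane. Pro-survival members hold the pore-forming members in check, and the BH3-only members, named after the single homology domain they share with the family, act on either kind to permit pore formation. Release of cytochrome c through the pore then activates the caspases. Beta cells can be lost through this pathway under cytokines, endoplasmic reticulum stress or DNA damage.

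The study used Beta-TC-6, an established mouse pancreatic beta cell line. Background on the line is that it came from an insulinoma of mice in which an insulin promoter drives the SV40 large T antigen, a viral protein that binds p53 and the retinoblastoma protein. Cells grew in medium with 25 mM glucose and 15% serum. In the siNF90 group (2 arrays) they received a mixture of 3 RNAi duplexes against NF90, a double-stranded RNA-binding protein, and in the siNTC group (2 arrays) a negative control siRNA, both with a lipid reagent. The labels give neither the time after transfection nor separate cultures, so p-values reflect the spread among these arrays alone, and that spread could be technical. NF90's own level is not reported here, and groups are called by their labels. Expression was measured on Affymetrix Mouse Gene 2.1 ST arrays, and values are the deposited log2 values, of which 1 unit is a factor of 2. Array medians over all probe sets were 1.65 to 1.68, and the median level of all genes was 1.84. No background signal was given with the values, so whether a dim gene was detected is unknown, and because probe sets differ in response, levels of different genes are not ranked.

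The arrays carried the signal of beta cells, with Ins2, an insulin gene, at 7.99 in siNTC and 7.95 in siNF90, and with 8 of 9 beta cell markers at or above the median level of all genes. The exception was Ucn3. Summed log2 values of the 9 were 61.19 to 61.39 in siNTC and 61.86 to 62.07 in siNF90. The largest differences were in the transcription factors Nkx6-1 (0.45 ± 0.12) and Mafa (0.38 ± 0.15), both without overlap between the groups. Neither passed the test over all genes (limma, adjusted p = 0.397 and 0.481). Of the 9 markers, 5 had a difference above 0 and 4 below (median 0.07). Without overlap, 3 were higher in siNF90 and 3 lower, and of all genes 21.9% were higher and 17.9% lower. All 5 other islet endocrine markers measured were also at or above the median level of all genes. Among them were the hormone genes Gcg (8.63 in siNTC and 8.83 in siNF90) and Sst (6.86 and 6.63). The 5 summed to 24.05 to 24.2 in siNTC and 24.21 to 24.27 in siNF90, with Irx2 at 0.3 ± 0.15 and Sst at -0.23 ± 0.13. Of 6 markers of exocrine and duct cells only Krt7 reached the median level, and their sums overlapped (9.71 to 10.48 against 9.73 to 10.35), with Prss1 at -0.17 ± 0.22 and Krt19 at 0.1 ± 0.16. Of 6 stromal, endothelial and blood markers only Cd68 reached it. That list summed to 9.44 to 9.7 in siNTC and 10.09 to 10.77 in siNF90, but 4 of its 6 members had a difference below 0 (median -0.03). Cd68 differed by 1.13 ± 0.12 and Cdh5 by -0.37 ± 0.14, and without Cd68 the siNTC arrays summed to 6.12 and 6.35 and the siNF90 arrays to 5.65 and 6.29. Ucn3, Gcg and Krt7 were chosen after their values were seen. The part of these lists in the results below was not tested, and in bulk RNA more cells of a type and more RNA per cell cannot be told apart.

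No member of the BCL2 family passed limma's test across all genes at an adjusted p under 0.05, where 0 of 22180 genes (0%) passed and 2281 (10.3%) had an unadjusted p under 0.05. The members with the widest differences were pro-death genes, Bid at 0.63 ± 0.21 and Bak1 at 0.58 ± 0.17 above siNTC (log2 difference and SE of the fit, 2 arrays a group). All 5 BH3-only genes among the 10 members had a difference above 0, and 6 of the 7 pro-death members did, with Bok as the exception. Over all genes, 11773 of 22180 had a difference above 0 and 10153 below it. For Bik (0.04) and Bcl2l11 (0.1) the direction turned when single arrays were left out. Outside the 10 members, the BH3-only gene Pmaip1 was above 0 (0.07), and Bmf (-0.22) and Hrk (-0.17) were below it. Of the 3 pro-survival members, Bcl2 had a difference above 0 and Bcl2l1 and Mcl1 below it. When limma's variance prior was allowed to vary with signal level (its trend option), 101 genes (0.455%) passed and again 0 of the 10 members.

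**Figure D1:**
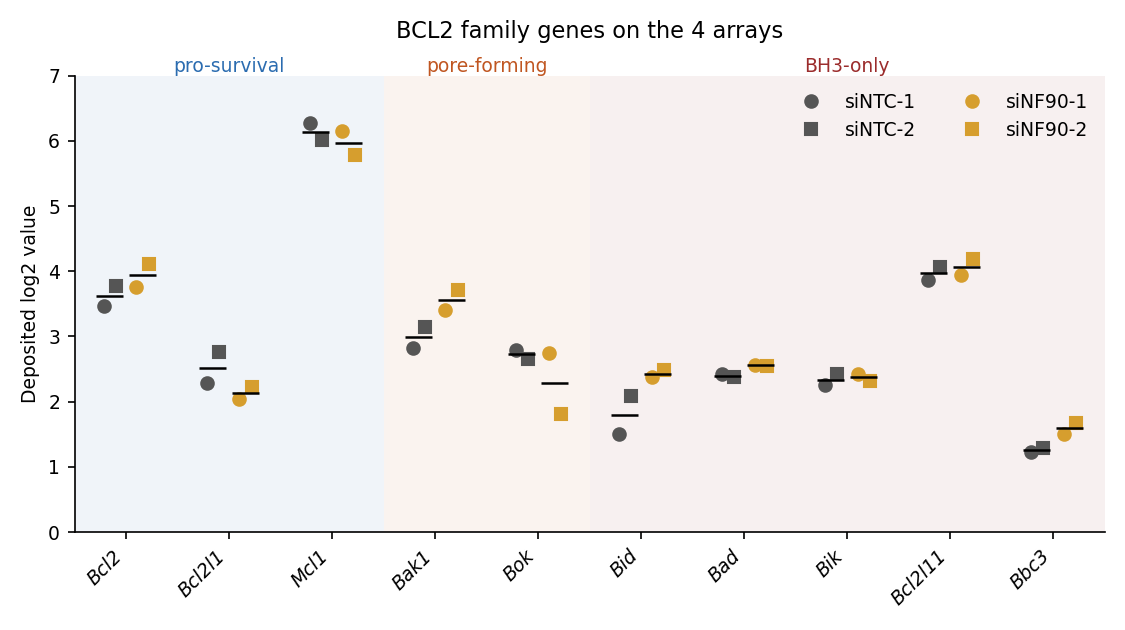
Deposited log2 value (vertical axis) of each of the 10 BCL2 family genes (horizontal axis, grouped by role) on the 2 siNTC arrays (grey) and the 2 siNF90 arrays (gold), with a bar at each group mean. Both gold points stand above both grey points for Bak1, Bid, Bad and Bbc3 and below them for Bcl2l1, and for Bok the second siNF90 array lies alone at 1.81.

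The promoters of Bak1, Bid and Bbc3 are shown because these were the 3 members whose 95% interval of the difference lay above 0. They are RefSeq sequences of build GRCm38.p6, the 250 bases before the annotated start, 5′ to 3′ on the gene's strand, and capitals mark the GC box GGGCGG or its reverse complement CCGCCC, a motif bound by Sp1-type factors. Bak1 lies on the minus strand at chr17:27028628-27028877, Bid on the minus strand at chr6:120916825-120917074, and the most upstream of 3 annotated starts of Bbc3 on the plus strand at chr7:16309333-16309582.
Bak1: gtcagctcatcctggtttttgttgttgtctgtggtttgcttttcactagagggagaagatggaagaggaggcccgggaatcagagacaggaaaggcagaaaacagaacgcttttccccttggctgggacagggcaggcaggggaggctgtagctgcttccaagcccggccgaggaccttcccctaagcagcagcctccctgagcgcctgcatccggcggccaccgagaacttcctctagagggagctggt
Bid: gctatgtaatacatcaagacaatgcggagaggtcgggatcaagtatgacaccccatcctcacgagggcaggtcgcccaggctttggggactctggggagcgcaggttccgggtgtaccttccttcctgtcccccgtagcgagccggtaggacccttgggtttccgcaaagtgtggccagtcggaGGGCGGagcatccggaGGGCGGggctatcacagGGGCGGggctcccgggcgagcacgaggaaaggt
Bbc3: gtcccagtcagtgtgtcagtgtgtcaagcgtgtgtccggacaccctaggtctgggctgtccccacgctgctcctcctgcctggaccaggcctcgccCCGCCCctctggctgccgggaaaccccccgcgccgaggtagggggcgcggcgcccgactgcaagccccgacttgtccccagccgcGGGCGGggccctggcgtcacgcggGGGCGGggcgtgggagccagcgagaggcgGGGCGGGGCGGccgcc
The Bak1 window holds no GC box and is 58.4% G and C. The Bid window holds 3 GC boxes, 66, 50 and 33 bases before the start, and is 63.6% G and C. The Bbc3 window holds 5, of which the last pair overlap, and is 76.4% G and C. The median over 32851 promoters was 52.4%.

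RefSeq promoters were matched for 9 of the 10 members (15 starts, Bik unmatched). The GC box was in 10 of the 15 windows and in 32.7% of all 32851 promoter windows of that length. Windows of the same gene are not independent, and the Bbc3 windows at 16310011-16310260 and 16310181-16310430 overlap. The 10 windows belonged to 7 members: Bad, Bbc3, Bcl2, Bcl2l11, Bid, Bok and Mcl1. These include members with differences above 0 and below 0, and a link between the box and the differences was not tested. The CCAAT box (CCAAT, both strands) was in 4 of 15, against 33.8% of all, and the TATA box (TATAAA, both strands) in 0 of 15, against 12.4%. The consensus p53 decamer was in 0 of 15, against 7.13% of all. A match or its absence describes these letters in these windows alone, and the arrays do not show which start was used.

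Among the pro-survival members, Bcl2, the founder of the family, read 3.47 and 3.77 on the siNTC arrays and 3.76 and 4.11 on the siNF90 arrays. The first siNF90 array lay just inside the siNTC range, so the groups overlapped. The difference was 0.32 ± 0.18, with a 95% interval from -0.12 to 0.75 (limma, adjusted p = 0.6). It was 0.14 without the second siNF90 array, 0.49 without the first, and 0.17 without the first siNTC array.

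Bcl2l1 encodes BCL-XL, which sequesters both BH3-only and pore-forming proteins. It read 2.28 and 2.76 in siNTC and 2.04 and 2.22 in siNF90. The siNF90 pair stood below the siNTC pair, by 0.06 at the closest, and the siNTC arrays stood 0.48 apart. The difference was -0.39 ± 0.19 (95% interval -0.85 to 0.07; limma, adjusted p = 0.546), and -0.15 without the second siNTC array.

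Mcl1 encodes a short-lived pro-survival protein. It read 6.27 and 6.01 in siNTC and 6.15 and 5.79 in siNF90, so the first siNF90 array lay between the siNTC arrays. The difference was -0.17 ± 0.17 (95% interval -0.59 to 0.25; limma, adjusted p = 0.789), and 0.01 without the second siNF90 array. A further Mcl1 probe set, 17407826, pointed the other way. It read 1.64 and 1.63 in siNTC and 1.99 and 1.84 in siNF90, a difference of 0.28 ± 0.13 (limma over all probe sets, adjusted p = 0.657), from a level below the medians of the siNTC arrays. The mean of both probe sets gave Mcl1 a difference of 0.06. A further Bcl2 probe set, 17216395, read 0.98 to 1.05 on all arrays, and with the mean of its probe sets Bcl2 had a difference of 0.17.

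Pro-survival members as a group had a median difference of -0.17, with 1 above 0 and 2 below, against a median of 0.02 over all genes. The arrays of the groups did not overlap in 1 of the 3, the lower Bcl2l1; of all genes, 17.9% were lower in siNF90 without overlap. The median of the 3 was 0.01 without the second siNF90 array, and 0.06 with the mean of each gene's probe sets.

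**Figure D2:**
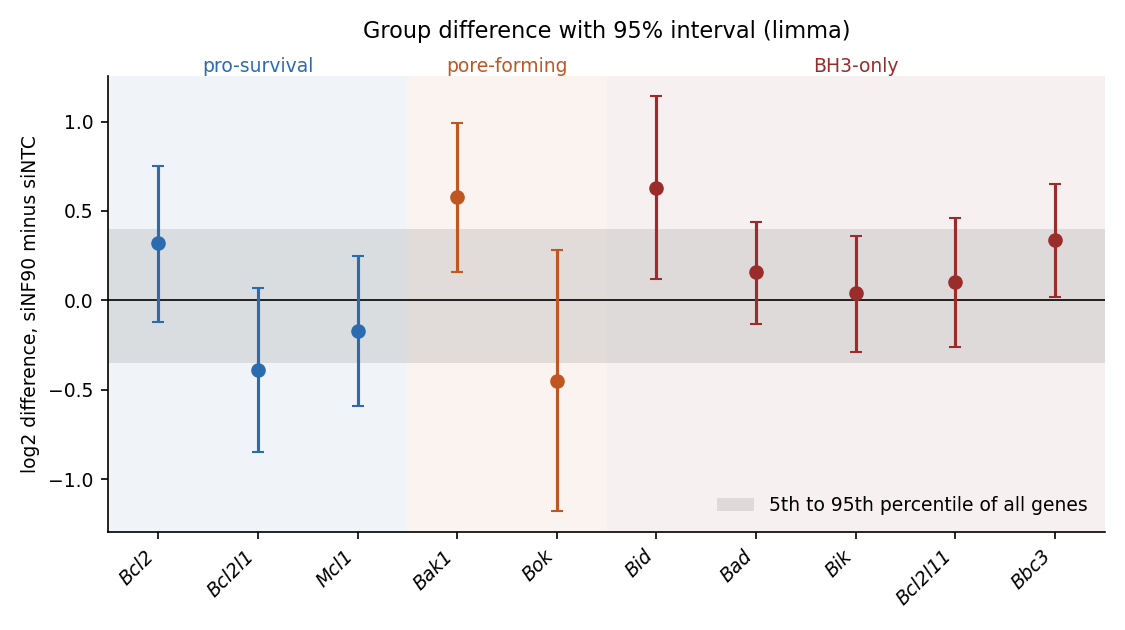
Log2 difference between the group means (vertical axis, siNF90 minus siNTC) of each BCL2 family gene, with the 95% interval of limma's fit, coloured by role; the grey band spans the 5th to the 95th percentile of all 22180 genes (-0.35 to 0.4). Bak1 and Bid stand above the band, Bcl2l1 and Bok below it, and the intervals of Bak1, Bid and Bbc3 do not reach 0.

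Of the pore-forming members, Bak1 encodes BAK, which sits in the outer mitochondrial membrane and oligomerizes when activated. Bak1 read 2.83 and 3.14 on the siNTC arrays and 3.41 and 3.71 on the siNF90 arrays. The groups did not overlap, and the gap between them (0.27) was a little smaller than the distance between the arrays within siNTC (0.31) or siNF90 (0.3). The difference was 0.58 ± 0.17 (95% interval 0.16 to 0.99), a 1.49-fold higher mean, with an unadjusted p of 0.0152 and an adjusted p of 0.409 in limma's test over all genes. By p-value Bak1 stood 816th among 22180 genes. Leaving out 1 array at a time gave differences from 0.42 to 0.73.

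Bok encodes a relative of BAK and BAX that can act without BH3-only proteins. It read 2.8 and 2.66 in siNTC and 2.75 and 1.81 in siNF90. Its difference of -0.45 ± 0.3 (95% interval -1.18 to 0.28; limma, adjusted p = 0.667) came from the second siNF90 array alone, and without that array it was 0.02. The siNF90 arrays differed by 0.94, the widest distance within a group among the 10 members. Bax, which encodes the other main pore-forming protein, was not analysed here for want of a probe set named for it alone.

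Among the BH3-only members, Bid encodes a protein that caspase 8 cleaves, which links death receptors to the mitochondrial pathway. Bid read 1.51 and 2.09 in siNTC and 2.38 and 2.48 in siNF90. The siNF90 pair stood above the siNTC pair, and the wider spread was in siNTC (0.58 against 0.1). The difference was 0.63 ± 0.21 (95% interval 0.12 to 1.14), with an unadjusted p of 0.0227 and an adjusted p of 0.432 in limma's test over all genes. It was 0.34 without the first siNTC array and 0.92 without the second. The siNTC mean of 1.8 lies just under the median level of all genes, so no fold is given.

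Bbc3 encodes PUMA, a BH3-only protein induced by p53. It read 1.23 and 1.29 in siNTC and 1.51 and 1.68 in siNF90, without overlap. The difference was 0.34 ± 0.13 (95% interval 0.02 to 0.65; unadjusted p = 0.0386 and adjusted p = 0.464, limma). All 4 values lie below the median level of all genes, and no other member had both group means there.

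Bad encodes a protein that 14-3-3 proteins hold in the cytosol when it is phosphorylated. It read 2.42 and 2.38 in siNTC and 2.56 and 2.55 in siNF90. Both siNF90 arrays were above both siNTC arrays, with the smallest distances within a group of any member (0.04 and 0.01), and the difference was 0.16 ± 0.12 (95% interval -0.13 to 0.44; limma, adjusted p = 0.702). A probe set that the platform assigns to Bad and Gpr137 together read 3.48 and 3.54 in siNTC and 3.54 and 3.41 in siNF90, a difference of -0.04 ± 0.13, so the separation in Bad was not seen there.

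Bcl2l11 encodes BIM, which binds all pro-survival proteins of the family. It read 3.87 and 4.07 in siNTC and 3.95 and 4.19 in siNF90, with overlap, and differed by 0.1 ± 0.15 (95% interval -0.26 to 0.46; limma, adjusted p = 0.861). Bik, whose protein acts at the endoplasmic reticulum, read 2.25 and 2.43 in siNTC and 2.43 and 2.32 in siNF90, giving a difference of 0.04 ± 0.13 (95% interval -0.29 to 0.36; limma, adjusted p = 0.956). For these genes the differences lay within the distance between arrays of a group, and their direction turned when single arrays were left out. The intervals leave room for a log2 change of up to 0.46 in Bcl2l11 and 0.36 in Bik.

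By side, the 7 pro-death members had a median difference of 0.16 and the 3 pro-survival members one of -0.17. Both siNF90 arrays stood above both siNTC arrays in 4 of the 7 pro-death members (Bak1, Bid, Bad and Bbc3), and 21.9% of all genes did so. Counting either direction, the groups did not overlap in 5 of the 10 members and in 39.8% of all genes. An unadjusted p under 0.05 in limma's test with a higher value was found for 3 of the 7 (Bak1, Bid and Bbc3), against 5.87% of all genes. Of the 3 pro-survival members, 0 had such a p in either direction, against 10.3% of all genes (4.41% with a lower value). The sides were not tested against each other, because the members were chosen with earlier results known. The median absolute difference between group means was 0.34 over the pro-death members, while the median distance between arrays was 0.18 within siNTC and 0.17 within siNF90. Over all genes these were 0.13, 0.15 and 0.15. Over the pro-survival members they were 0.32, 0.3 and 0.35. Group means vary less than single arrays, so the first value of each set is not on the same scale as the others.

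Each siNF90 array was also set against each siNTC array. The median over the pro-death members was 0.18, 0.18, 0.32 and 0.17 in the 4 pairs of arrays, and over the pro-survival members -0.12, -0.01, -0.06 and -0.22. The pairs share arrays and are not independent. The same sign in every pair is another way to state that the groups did not overlap, so it adds no further evidence. Bak1, Bid, Bad and Bbc3 were above 0 in every pair, like 21.9% of all genes. Bak1 ran from 0.27 to 0.88 and Bid from 0.29 to 0.97. Bcl2l1 was below 0 in every pair, from -0.72 to -0.06, like 17.9% of all genes.

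**Figure D3:**
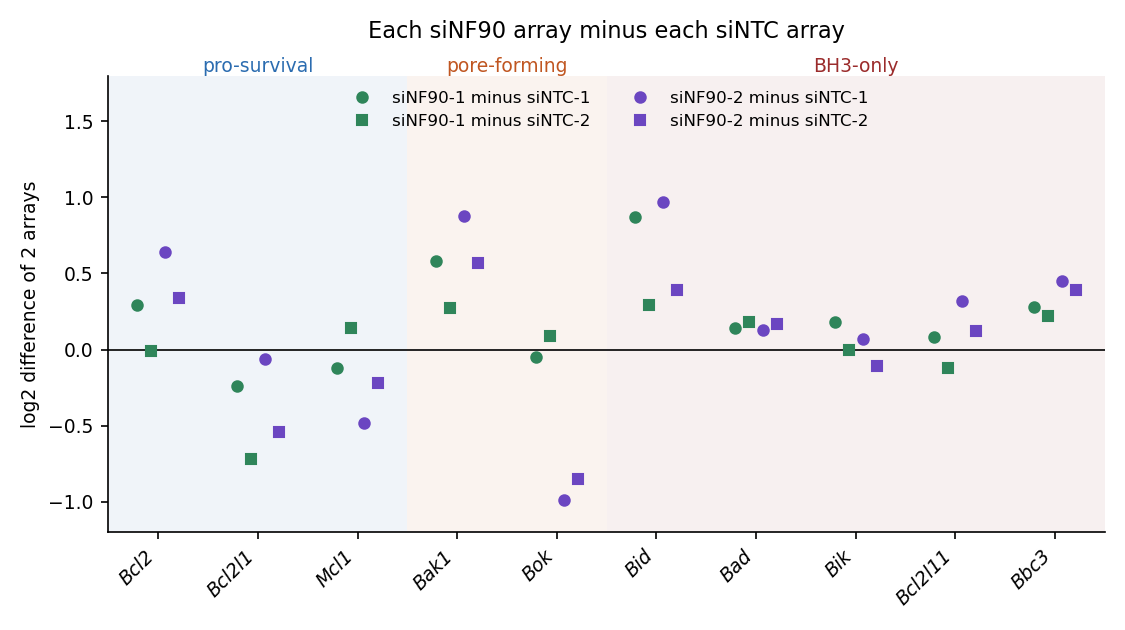
Log2 difference (vertical axis) of each of the 4 pairs of 1 siNF90 array and 1 siNTC array, for each BCL2 family gene grouped by role; colour marks the siNF90 array and shape the siNTC array. Points for Bid run from 0.29 to 0.97, and those for Bok split by siNF90 array, at -0.05 and 0.09 for the first and -0.99 and -0.85 for the second.

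The rest of the family was measured for 9 of 13 listed genes, and no member passed (limma, lowest adjusted p = 0.569). Of these, 5 had a difference above 0 and 4 below, with a median of 0.01. Bcl2l13, a mitochondrial membrane protein, read 5.03 and 4.93 in siNTC and 4.68 and 5.03 in siNF90. Bcl2l2, which encodes the pro-survival protein BCL-w, read 2.68 and 2.73 in siNTC and 2.64 and 2.68 in siNF90, a difference of -0.05 ± 0.12. The other 7 had both group means below the median level of all genes. They were the pro-survival genes Bcl2a1a (0.29) and Bcl2l10 (0.06), the BH3-only genes Pmaip1 (0.07), which encodes NOXA, Bmf (-0.22) and Hrk (-0.17), and Bcl2l14 (0.23) and Bcl2l15 (0.01). Bcl2a1a has close copies in the mouse genome, so its value is uncertain.

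Downstream of the pore, the apoptosome and caspase list had 5 of 11 measured genes above 0 and 6 below (median -0.02), and none passed. Htra2, a mitochondrial protease that counters the inhibitors of apoptosis once released, read 5.21 and 4.94 in siNTC and 5.5 and 5.4 in siNF90, a difference of 0.38 ± 0.14 (limma, adjusted p = 0.466). Dffa, the inhibitor of the apoptotic nuclease, differed by 0.3 ± 0.13. Cycs, which encodes cytochrome c, differed by 0.02 ± 0.12 and Apaf1, which assembles the apoptosome with it, by -0.11 ± 0.12; these 2 were chosen after their values were seen. The inhibitors of apoptosis had 2 of 7 genes above 0 and 5 below (median -0.08), with Birc5 (survivin) at -0.15 ± 0.13 and Birc3 at -0.12 ± 0.2. The groups overlapped for all 7, as they did for most genes (39.8% of all genes did not overlap).

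The death receptor pathway, which reaches the BCL2 family through Bid, had 6 of 10 measured genes above 0 and 4 below (median 0.05), and none passed. Cflar, which encodes the caspase 8 inhibitor c-FLIP, read 3.26 and 3.34 in siNTC and 3.61 and 3.81 in siNF90, a difference of 0.41 ± 0.13 (limma, adjusted p = 0.429). Tnfrsf10b, the mouse TRAIL receptor, read 1.59 and 1.8 in siNTC and 2.04 and 2.09 in siNF90, a difference of 0.37 ± 0.13 (adjusted p = 0.446). Casp8 itself, chosen after its value was seen, differed by -0.08 ± 0.2.

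Genes known to act on family proteins had 13 of 22 above 0 and 9 below (median 0.02), and none passed. Ywhae, which encodes a 14-3-3 protein, read 9.64 and 9.66 in siNTC and 9.21 and 9.28 in siNF90. The difference was -0.41 ± 0.12 (limma, adjusted p = 0.409), and with the trend it passed (adjusted p = 0.0153). Ywhaq, another 14-3-3 gene and chosen after its value was seen, read 10.32 and 10.22 in siNTC and 10.01 and 9.98 in siNF90. It also passed with the trend (adjusted p = 0.0465), where 0.221% of all genes passed as lower. Ywhag, a further gene of that family, differed by 0.34 ± 0.15 in the other direction. The remaining 14-3-3 genes of the list were Ywhab (0.02), Ywhah (0.03), Ywhaz (-0.03) and Sfn (0.1), named after their values were seen. Huwe1 and Usp9x, which encode a ubiquitin ligase and a deubiquitinase of MCL1 and were chosen after their values were seen, differed by 0.03 ± 0.12 and -0.18 ± 0.12.

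**Figure D4:**
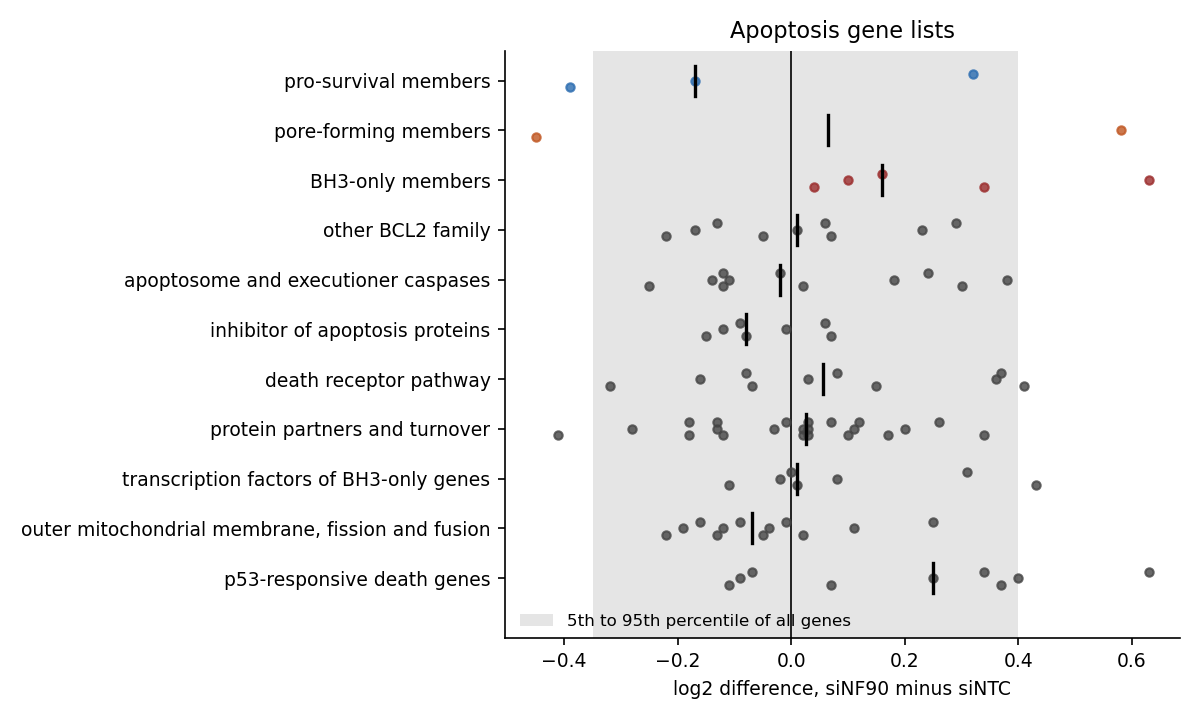
Log2 difference between the group means (horizontal axis, siNF90 minus siNTC) of each measured gene of 11 lists of apoptosis genes (rows), with a black bar at each list's median and the 5th to 95th percentile of all genes in grey. The BCL2 family members spread from -0.45 (Bok) to 0.63 (Bid), and the inhibitors of apoptosis stay between -0.15 and 0.07.

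Transcription factors known to induce BH3-only genes had 4 of 7 above 0, 2 below and 1 at 0 (median 0.01), and none passed. Jun, a subunit of AP-1, read 5.63 and 5.2 in siNTC and 5.94 and 5.74 in siNF90, a difference of 0.43 ± 0.18 (limma, adjusted p = 0.499), and Trp73, a relative of p53, differed by 0.31 ± 0.15. Genes of the outer mitochondrial membrane and of fission and fusion had 3 of 12 above 0 and 9 below (median -0.07). Mtch2, the receptor of cleaved BID on mitochondria, read 9.37 and 9.27 in siNTC and 9.08 and 9.13 in siNF90, a difference of -0.22 ± 0.12 (limma, adjusted p = 0.598), and Mfn2, a mitochondrial fusion protein, differed by 0.25 ± 0.13.

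Death genes known to respond to p53, a list that includes Bid and Bbc3, had 6 of 9 measured members above 0 and 3 below (median 0.25), and none passed. Pidd1, which builds the platform that activates caspase 2, read 2.9 and 3.1 in siNTC and 3.33 and 3.46 in siNF90, a difference of 0.4 ± 0.13 (limma, adjusted p = 0.439). In 4 of the 9 (Bbc3, Bid, Tnfrsf10b and Pidd1) the groups did not overlap and siNF90 was higher, as in 21.9% of all genes. The others were Aen at 0.25 ± 0.23, Pmaip1 at 0.07 ± 0.21, Fas at -0.07 ± 0.15, Perp at -0.09 ± 0.13 and Apaf1 at -0.11 ± 0.12, of which Aen, Fas, Perp and Apaf1, like Tnfrsf10b in this list, were named after their values were seen. Cdkn1a, the p53 target of cell cycle arrest, read 6.33 and 6.39 in siNTC and 7.42 and 7.33 in siNF90, a difference of 1.02 ± 0.12 (limma, adjusted p = 0.342, and 0.00633 with the trend), and the differences of the death genes of this list were all smaller.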

How the data were processed

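RNA of 4 samples of Beta-TC-6 cells (siNTC, 2 arrays; siNF90, 2 arrays) was hybridised to single-colour arrays. The authors deposited 1 table of log2 values for 41345 probe sets, and the submitters' processing notes name Transcriptome Analysis Console. For background correction, normalization, summarization and log base, the method is not given in the sources used here. Base 2 was taken from the range of the values. Probe sets with 1 platform symbol (23521) gave 22180 genes, using the probe set with the highest mean. The genes were fitted before any filter with limma 3.58.1 in R 4.3.3 (lmFit, eBayes without a trend, two-sided, Benjamini-Hochberg over all genes, threshold 0.05), with 2 residual and 3.92 prior degrees of freedom. Each array's value is printed; errors of differences are standard errors of the fit, and 95% intervals come from it. With 2 arrays a group, the smallest two-sided p of an exact permutation test is 0.33, and that test was not run. The scripts were tested on simulated data. The number of arrays limits the precision.

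The members and lists were chosen with earlier results of these data known. Named are all members and other measured family genes, and from each further list those that passed, or else the 2 that differed most; any other name is marked as chosen after its value was seen. Alternatives were a replicate block, a trended or a robust prior, quantile normalization, median centring, a level filter, averaging the probe sets of a gene, testing all probe sets, and leaving out each array.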

Additional observations from a re-analysis of the deposited data

Results flagged for a closer look

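The further Mcl1 probe set 17407826, outside the values used for the members, read higher on both siNF90 arrays than on both siNTC arrays. Its difference was 0.28, while the probe set used for Mcl1 had -0.17. Only further probe sets higher without overlap were flagged, and 21.9% of all genes were higher in this way. The further Bcl2 probe set and the one shared by Bad and Gpr137 overlapped. Groups of 2 arrays are too small for a search for single outlying arrays.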

How the results depend on the processing

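No member passed limma's test under any of the 12 alternatives run (11 for Bbc3, which the level filter removed), and 101 genes passed with the trend, against 0 otherwise. The replicate block gave 0 genes and 0 members. The numbers are not stated to mark shared cultures. A single correlation of the deviations of same-numbered arrays was r = -0.02 across genes, which cannot show whether they share an origin. Bak1, Bid, Bad, Bbc3, Bcl2 and Bcl2l1 kept their direction under all alternatives run, Bak1 between 0.42 and 0.73 and Bid between 0.34 and 0.92. Directions turned for Mcl1 with the mean of its probe sets (0.06) and without the second siNF90 array (0.01, in a range of -0.35 to 0.01 over the arrays left out), for Bok without that same array (-0.92 to 0.02), for Bcl2l11 likewise (-0.02 to 0.22), and for Bik without the first siNF90 array (-0.02) or the first siNTC array (-0.06 to 0.13). The median of the pro-death members was 0.13 with the level filter, which left 6 of them, and 0.22 with quantile normalization. When single arrays were left out it was 0.16 to 0.22, and that of the pro-survival members -0.3 to 0.01. With the mean of each gene's probe sets the pro-survival median was 0.06. No background signal was given, so how far dim values (Bid, Bbc3, Bcl2l1) understate differences was not tested.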
